A study of Homo sapiens with 18 samples.

Results

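The 49 genes described here encode the proteins that license replication origins, unwind DNA and run the replication fork. They were chosen by gene name. They comprised the origin recognition complex (ORC1 to ORC6), the licensing factors CDC6, CDT1 and GMNN, the MCM2 to MCM7 helicase, MCM8 and MCM10, CDC45 with GINS1 to GINS4, and the kinase pair CDC7 and DBF4. They also took in POLA1, POLA2, PRIM1, PRIM2, POLD1 to POLD3, POLE, POLE2, PCNA, RFC1 to RFC5, RPA1 to RPA3, FEN1, LIG1, TIMELESS, TIPIN, WDHD1, CHAF1A and CHAF1B. All 49 were found among the 22136 genes of the 2-day count table and the 21276 genes of the 7-day count table, and all 49 passed the filter on low counts in every fit.

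Origins are licensed in G1 phase, when the origin recognition complex, CDC6 and CDT1 load the MCM ring onto DNA, and geminin (GMNN) blocks further loading once S phase has begun. The DBF4-dependent kinase then fires the origin, CDC45 and GINS join MCM to form the active helicase, and polymerases alpha, delta and epsilon copy the strands with the PCNA clamp. Many of these genes are transcribed at the G1/S boundary through E2F sites in their promoters, so in a dividing culture their transcript levels are widely used as readouts of cell cycling.

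The cells were C4-2B, an established castration-resistant prostate cancer line labelled wild type, and all groups shared this 1 line. Vehicle cells received DMSO. VIC-1911, an Aurora kinase A inhibitor, was given at 0.1 µM and olaparib, a PARP inhibitor, at 1 µM, and the combination held both drugs. Vehicle and VIC-1911 were sampled after 2 days, and vehicle, VIC-1911, olaparib and the combination after 7 days, with 3 libraries in each of the 6 groups. Nothing in the labels says whether the 3 libraries came from separate cultures, so the p-values measure only the spread between these libraries, which may be technical.

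Most of these genes that had a promoter window carried an E2F-type motif in it, and 3 windows are printed here. Only genes described below with such a motif before the start were eligible. From those, the 3 with the smallest adjusted p in the combination against vehicle were taken. Genes without a motif there, such as POLD1 and MCM2, were passed over whatever their change. Each run holds the 250 bases before a transcription start in the RefSeq table for GRCh38.p14, read 5′ to 3′ on the gene's strand. Capitals mark each E2F-type motif, defined here as the run TTCCCGC or its variants with the middle letters changed, namely the variant TTGGCGC, then the variant TTCGCGC, then lastly the variant TTGCCGC. Both strands were searched, and matches may overlap one another.
PCNA: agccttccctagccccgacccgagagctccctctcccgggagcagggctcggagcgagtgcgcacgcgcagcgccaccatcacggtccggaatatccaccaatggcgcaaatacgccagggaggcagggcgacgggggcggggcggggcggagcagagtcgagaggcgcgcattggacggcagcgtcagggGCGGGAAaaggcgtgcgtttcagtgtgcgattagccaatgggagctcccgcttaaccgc
LIG1: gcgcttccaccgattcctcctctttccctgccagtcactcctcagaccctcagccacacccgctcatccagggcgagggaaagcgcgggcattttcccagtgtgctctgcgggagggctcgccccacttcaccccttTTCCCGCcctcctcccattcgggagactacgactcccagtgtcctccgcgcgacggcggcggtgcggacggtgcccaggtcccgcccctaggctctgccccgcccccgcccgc
CDC7: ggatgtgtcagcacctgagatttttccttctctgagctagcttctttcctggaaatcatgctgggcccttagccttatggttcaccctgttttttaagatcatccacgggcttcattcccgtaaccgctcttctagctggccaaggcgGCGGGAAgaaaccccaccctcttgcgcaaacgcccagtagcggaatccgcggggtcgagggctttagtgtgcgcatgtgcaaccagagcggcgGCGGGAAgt
The PCNA window lies at chr20:5126623-5126872 on the minus strand, with the motif beginning 59 bases before the start. The LIG1 window lies at chr19:48170345-48170594 on the minus strand, with the motif 113 bases before the start. The CDC7 window lies at chr1:91500601-91500850 on the plus strand, with motifs 102 and 9 bases before the start.

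In the same table, 43 of the 49 genes had 54 windows that ran from 250 bases before to 50 bases after a start. An E2F-type motif was present in 34 of these 54 windows (63.0%), against 13.0% of all 35116 windows and 18.7% of the windows of genes tested here. By gene, 32 of 43 (74.4%) had at least 1 motif, against 24.6% of the tested genes. With only 150 bases before the start the share was 72.1%. The CCAAT box, searched as CCAAT on both strands, was present in 53.7% of the windows of these genes. It was present in 34.6% of all windows and in 34.5% of the windows of tested genes. The CHR element, searched as TTTGAA on both strands, is known from promoters of G2/M genes. It was found in 1 of the 54 windows (1.85%), against 15.2% of all windows and 10.1% of the windows of tested genes. These shares are descriptions of letters in a window and are not evidence of binding.

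Each library held between 3245273 and 19684208 counts, with 3245273 to 7184420 in the 2-day libraries and 4967931 to 19684208 in the 7-day libraries. The 49 genes together held between 12773 and 53251 counts in a library, and the lowest single value was 32 counts, for ORC3. The 8 prostate luminal markers used were all present, with KLK3 between 1244 and 2697 FPKM, and their summed level was 4362 to 4397 FPKM in the 7-day vehicle libraries against 2442 to 3281 FPKM in the libraries of the other 5 groups. Of the 15 fibroblast, leukocyte and endothelial markers, DCN, CD3E and CDH5 were at 0 in every library and PTPRC did not exceed 0.0113 FPKM. The summed fibroblast markers ranged from 1.39 to 2.63 FPKM, mostly COL1A1, the summed leukocyte markers from 5.95 to 10.4 FPKM, mostly CD68, and the summed endothelial markers from 0.173 to 0.754 FPKM. Some of these low levels differed by treatment at 7 days, when 3 fibroblast markers, CD68 and VWF passed the filter on low counts. The summed leukocyte level was 6.11 to 6.96 FPKM with vehicle, 7.53 to 7.98 with VIC-1911, 8.36 to 10.3 with olaparib and 9.38 to 10.4 with the combination, and CD68 rose with the last 2 (0.42 and 0.59 on the log2 scale). The summed fibroblast level was 1.55 to 2.10 FPKM with vehicle, 1.69 to 1.99 with VIC-1911, 2.21 to 2.51 with olaparib and 2.34 to 2.63 with the combination. PDGFRB rose with VIC-1911, COL1A1 and PDGFRB with olaparib, and COL1A1 and COL3A1 with the combination, while COL1A1 fell at 2 days. The summed endothelial level was 0.654 to 0.743 FPKM with vehicle, 0.434 to 0.754 with VIC-1911, 0.173 to 0.339 with olaparib and 0.241 to 0.421 with the combination, and VWF fell with the last 2 (-1.19 and -1.22). The part of these markers in the results below was not tested. The sample records give the 7-day vehicle and VIC-1911 libraries consecutive numbers and place those with olaparib, alone or combined, in a separate block of numbers. A difference in library preparation between these blocks, if any, and the effect of olaparib cannot be told apart. The comparisons of VIC-1911 with vehicle and of the combination with olaparib stay within a block. Of the 49 genes, 13 share exon bases with another counted gene and 10 have annotated pseudogene copies (19 with either). Those 19 include ORC1, ORC4, MCM7, GINS1, DBF4, PRIM1, POLD2, PCNA, RFC4, RFC5, RPA1, RPA2, RPA3, FEN1, TIPIN, CHAF1A and CHAF1B. The rule for strand and for reads with several matches was not given in the sources used here, so values of those genes are less certain.

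Replication genes were somewhat lower after 2 days of VIC-1911 and higher after 7 days of either drug. After 7 days of both they were somewhat higher than the 7-day vehicle, by a smaller median than with either drug alone. A gene was called when its adjusted p was under 0.05 in edgeR's quasi-likelihood test over all genes, and a second rule added a fold change of at least 1.5 at 2 days and 2 at 7 days. At 2 days, 26 of the 49 genes fell and 2 rose with VIC-1911, where 7.19% of the 12241 genes tested fell and 7.5% rose. Their median log2 fold change was -0.22, where the median over all genes lay within 0.01 of 0, and 0 of the 49 changes reached 1.5-fold (1.33% of all genes fell and 0.825% rose by that much). By DESeq2, 12 of the genes fell and 0 rose, and the 2-day calls of ORC2, ORC5, CDC6, MCM8, GINS4, POLA1, POLD1, POLD3, POLE2, PCNA, RPA1, RPA3, FEN1, LIG1, CHAF1A and CHAF1B were lost.

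After 7 days of VIC-1911, 46 of the 49 genes rose and 0 fell, where 26.7% of the 14409 genes tested rose and 25.7% fell. The median log2 fold change was 0.83, and 15 genes rose at least 2-fold and 0 fell that far (3.46% and 3.43% of all genes). Olaparib raised 44 genes and lowered 0 (28.1% and 25.9% of all genes), with a median of 0.53 and 4 genes higher and 0 lower past 2-fold (3.63% and 3.53% of all genes). That count of 4 was 2 without vehicle replicate 2 or without olaparib replicate 2. The combination raised 26 genes and lowered 2 (28.6% and 28.0% of all genes), with a median of 0.20 and 0 genes past 2-fold in either direction (4.55% and 4.0% of all genes). The count of 2 lower genes was 1 without combination replicate 3. The median over all genes lay between -0.01 and 0.01 in these 3 comparisons, which share the same 3 vehicle libraries. In the count of libraries that do not overlap, all 3 VIC-1911 values of FPKM (fragments scaled to transcript length and library size) lay above all 3 vehicle values for 47 of the 49 genes at 7 days (33.9% of all genes), for 44 with olaparib (31.9%) and for 26 with the combination (30.1%). They lay below all vehicle values for 0, 0 and 2 genes (25.4%, 26.9% and 29.1% of all genes). At 2 days, all 3 VIC-1911 values lay below all 3 vehicle values for 33 genes (18.4%). In these bulk samples, fewer cells that express a gene and less RNA per cell cannot be told apart.

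**Figure D1:**
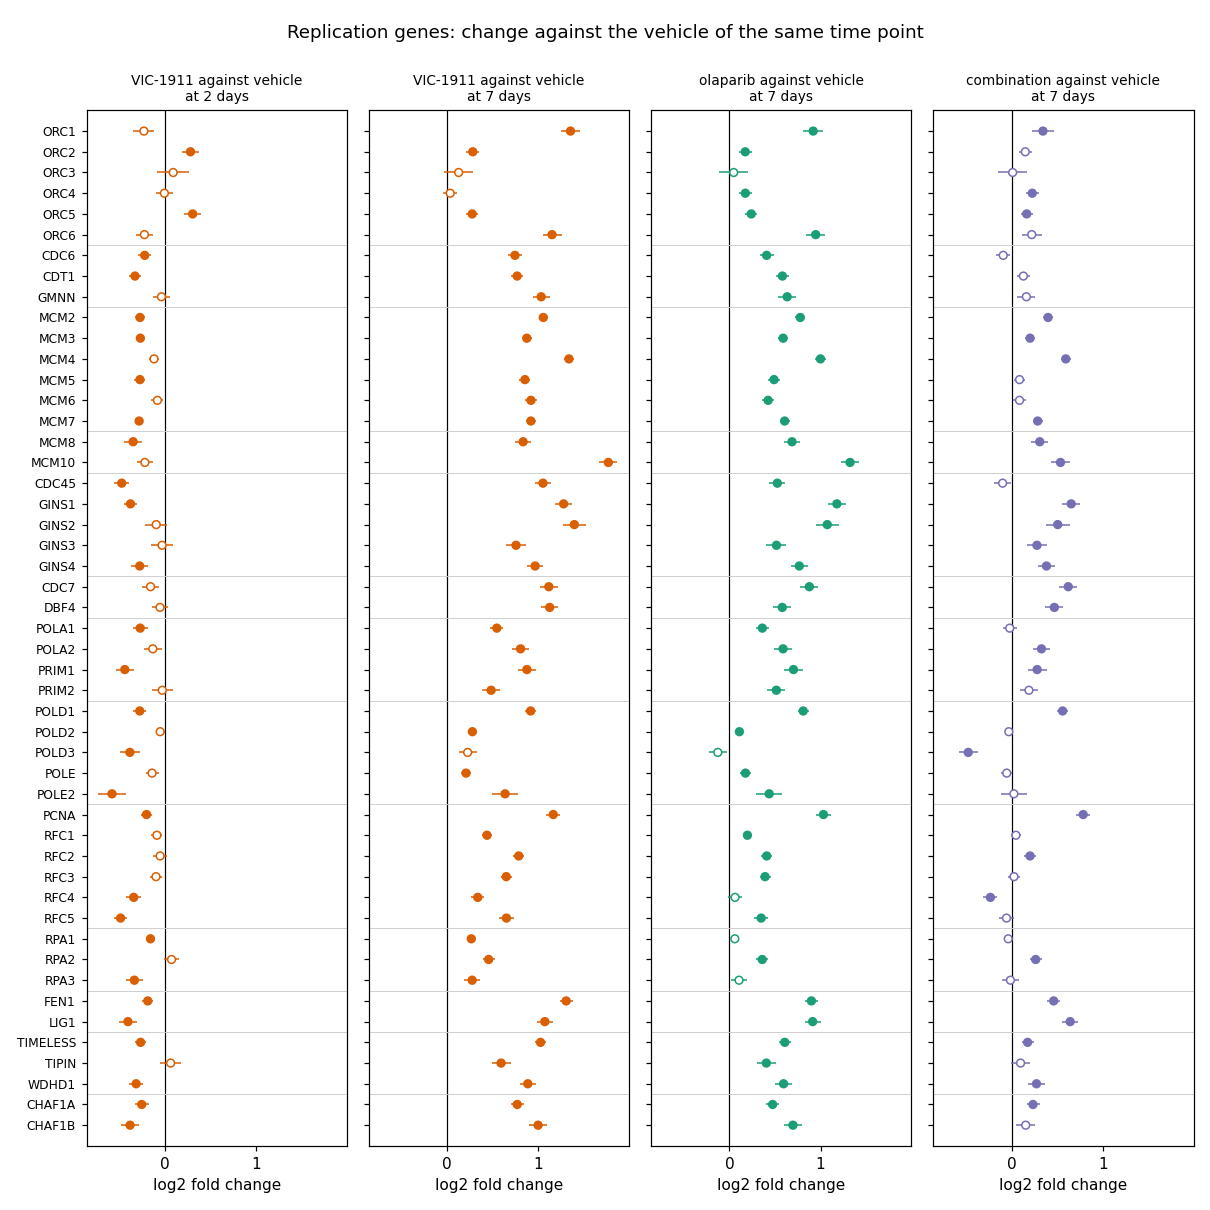
Log2 fold change of each of the 49 genes (rows, grouped by role from origin recognition at the top to chromatin assembly at the bottom) against the vehicle of the same time point, with bars of ± 1 standard error. Filled points passed adjusted p under 0.05 and open points did not, and the filled points lie mostly left of 0 at 2 days, right of 0 after 7 days of either drug, and nearer 0 with the combination.

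The 2 vehicle groups gave different levels of the same genes. Set beside the 2-day vehicle mean, the median ratio of FPKM over the 49 genes was 0.852 with VIC-1911 at 2 days, 0.424 in the 7-day vehicle, 0.795 with VIC-1911 at 7 days, 0.618 with olaparib and 0.487 with the combination. For 47 of the 49 genes, all 3 values of the 7-day vehicle lay below all 3 of the 2-day vehicle (37.7% of all genes), and the exceptions were ORC3 and POLE. The ratio of the 7-day to the 2-day vehicle ran from 0.205 for MCM10 to 1.00 for POLE. The share of all counts held by the 49 genes was 0.394% in each 2-day vehicle library and 0.190% to 0.203% in the 7-day vehicle libraries. It was 0.340% to 0.343% with VIC-1911 at 2 days, 0.323% to 0.332% with VIC-1911 at 7 days, 0.271% to 0.290% with olaparib and 0.226% to 0.231% with the combination. The time points are separate experiments in separate tables, so time and experiment cannot be told apart, and the levels of the 2 vehicle groups were not tested against each other. At 7 days the group means stood in the order vehicle, combination, olaparib, VIC-1911 from low to high for 36 of the 49 genes. For 10 more the combination was lowest, then vehicle, olaparib and VIC-1911.

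**Figure D2:**
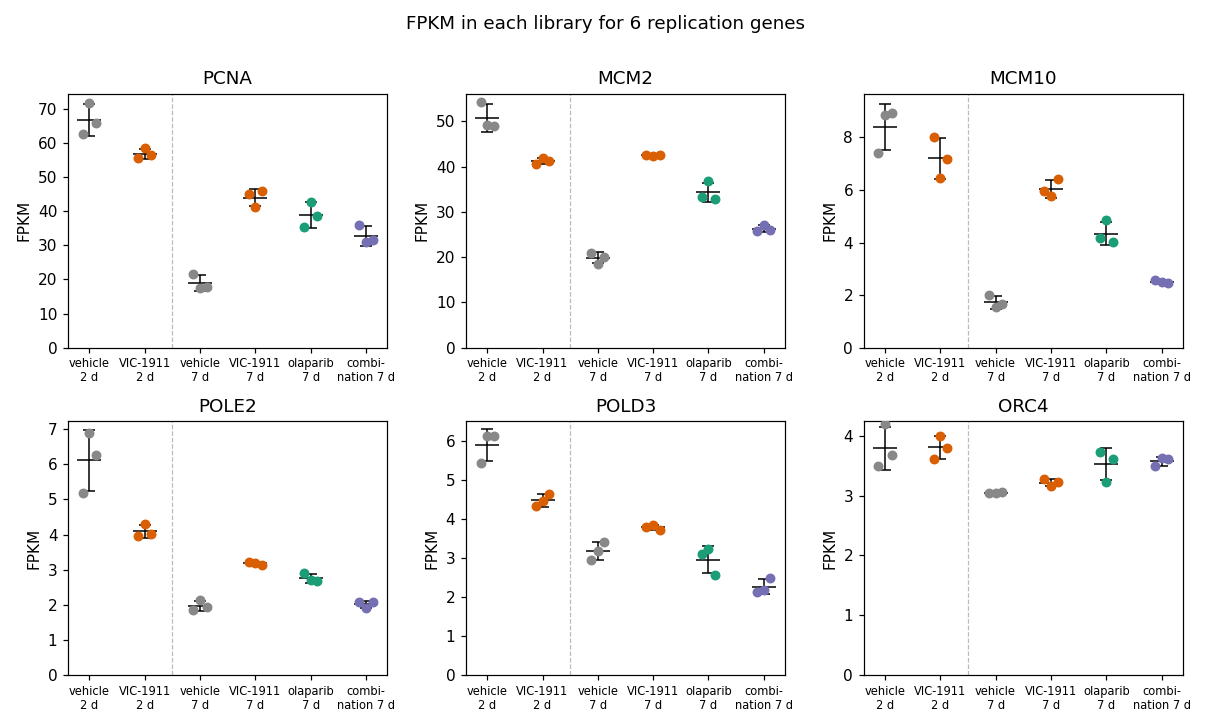
FPKM of 6 replication genes in each of the 18 libraries, with points for libraries and black bars for the mean ± SD of 3, and a dashed line between the 2-day and the 7-day experiment. PCNA, MCM2 and MCM10 were lowest in the 7-day vehicle, POLE2 was as low with the combination as with vehicle, POLD3 was lowest with the combination, and ORC4 changed little.

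The origin recognition complex, which marks origins, spanned log2 fold changes from 0.03 to 1.35 with VIC-1911 at 7 days. Of its 6 subunits, 2 rose and 0 fell at 2 days (7.5% and 7.19% of all genes). At 7 days 4 rose with VIC-1911, 5 with olaparib and 3 with the combination (26.7%, 28.1% and 28.6% of all genes). ORC1, the largest subunit, and ORC6 behaved like most of the 49 genes, whereas the estimates for ORC2 to ORC5 were at most 0.30 in size on the log2 scale in any comparison with vehicle. ORC1 had 6.63, 7.17 and 5.77 FPKM in the 2-day vehicle libraries and 5.56, 4.75 and 5.26 FPKM with VIC-1911. At 7 days ORC1 had 2.21, 2.13 and 1.68 FPKM with vehicle, 5.19, 5.42 and 5.67 with VIC-1911, 3.999, 4.39 and 3.55 with olaparib and 2.73, 2.48 and 2.65 with the combination. The 3 vehicle libraries of 7 days were the lowest of all 18, and each treated group lay above them without overlap. The log2 fold changes ± standard error (SE) for ORC1 were -0.23 ± 0.11 at 2 days, 1.35 ± 0.11 for VIC-1911, 0.92 ± 0.11 for olaparib and 0.34 ± 0.12 for the combination, of which the first was not called (adjusted p = 0.18) and the last was (adjusted p = 0.014). ORC1 lost its combination call when vehicle replicate 3 or combination replicate 1 was left out, with the adjusted p then as high as 0.067.

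ORC4 and ORC5 are core subunits of the same ring. ORC4 had 3.50, 4.19 and 3.67 FPKM in the 2-day vehicle libraries and 3.62, 4.003 and 3.79 FPKM with VIC-1911. At 7 days ORC4 had 3.04, 3.05 and 3.06 FPKM with vehicle, 3.28, 3.16 and 3.22 with VIC-1911, 3.73, 3.22 and 3.62 with olaparib and 3.49, 3.62 and 3.62 with the combination. These ORC4 values overlapped at 2 days and covered a narrow range at 7 days, where the combination libraries and 2 of the 3 olaparib libraries were highest. The estimates for ORC4 were -0.01 ± 0.10 at 2 days, 0.03 ± 0.07 for VIC-1911, 0.17 ± 0.07 for olaparib and 0.23 ± 0.07 for the combination, and only the last 2 passed (adjusted p = 0.045 and 0.0081). ORC4 lost its olaparib call when vehicle replicate 1, 2 or 3 or olaparib replicate 1 or 3 was left out, with the adjusted p then as high as 0.22. Values of ORC5 at 2 days were 13.97, 13.3 and 13.6 FPKM with vehicle and 18.8, 18.1 and 14.9 FPKM with VIC-1911. The 7-day ORC5 values were 12.1, 11.6 and 11.7 FPKM with vehicle, 15.2, 13.8 and 15.3 with VIC-1911, 12.8, 14.6 and 14.4 with olaparib and 13.4, 13.5 and 12.97 with the combination. All ORC5 values of each treated group lay above those of the matching vehicle. ORC5 rose in all 4 comparisons, by 0.30 ± 0.10 at 2 days, 0.27 ± 0.07 for VIC-1911, 0.24 ± 0.07 for olaparib and 0.17 ± 0.07 for the combination. ORC5 lost its 2-day call when vehicle replicate 2 or 3 or VIC-1911 replicate 1 or 2 was left out, with the adjusted p then as high as 0.2. ORC5 lost its combination call when vehicle replicate 1, 2 or 3 or combination replicate 1 or 2 was left out, with the adjusted p then as high as 0.15. ORC2 also rose at 2 days, by 0.28 ± 0.10, and it lost that call when vehicle replicate 2 or 3 or VIC-1911 replicate 1 or 2 was left out (adjusted p up to 0.22). With olaparib ORC2 rose by 0.17 ± 0.07, a call lost when any 1 of the 6 libraries was left out (adjusted p up to 0.15). ORC3 was not called in any comparison.

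CDC6 and CDT1 bring the MCM ring to origins, and GMNN, geminin, binds CDT1 to stop re-licensing. All 3 rose with VIC-1911 and with olaparib at 7 days (26.7% and 28.1% of all genes). With the combination 0 passed, where 28.6% of all genes rose and 28.0% fell. A group of 3 genes is too small to set apart from those shares. CDT1 had 22.5, 22.6 and 23.3 FPKM in the 2-day vehicle libraries and 18.04, 18.997 and 17.8 FPKM with VIC-1911. At 7 days CDT1 had 12.2, 11.5 and 10.7 FPKM with vehicle, 19.3, 20.2 and 21.1 with VIC-1911, 15.4, 18.7 and 17.5 with olaparib and 12.7, 13.2 and 12.1 with the combination. The VIC-1911 libraries of CDT1 lay below vehicle at 2 days and above it at 7 days, while the combination overlapped vehicle. Its estimates were -0.33 ± 0.07 at 2 days, 0.77 ± 0.07 for VIC-1911, 0.58 ± 0.07 for olaparib and 0.13 ± 0.07 for the combination, with adjusted p = 7.0e-04 at 2 days and 0.11 for the combination. Values of GMNN at 2 days were 21.8, 23.5 and 21.03 FPKM with vehicle and 20.2, 21.8 and 22.7 FPKM with VIC-1911. The 7-day GMNN values were 8.94, 8.05 and 6.68 FPKM with vehicle, 16.7, 16.7 and 17.6 with VIC-1911, 12.4, 13.9 and 11.8 with olaparib and 9.15, 8.62 and 9.37 with the combination. GMNN overlapped at 2 days, and at 7 days the combination again overlapped vehicle. The estimates for GMNN were -0.04 ± 0.09 at 2 days, 1.03 ± 0.09 for VIC-1911, 0.63 ± 0.10 for olaparib and 0.16 ± 0.10 for the combination, with adjusted p = 0.83 at 2 days and 0.16 for the combination. CDC6 fell by 0.22 on the log2 scale at 2 days (adjusted p = 0.023), a call lost without vehicle replicate 1 or 3 or VIC-1911 replicate 1 or 3 (adjusted p up to 0.13), and its combination estimate was -0.09 ± 0.08 (adjusted p = 0.32).

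The 6 subunits of the MCM2 to MCM7 ring, the core of the replicative helicase, had like changes. At 2 days 4 of the 6 fell, by 0.27 to 0.28 on the log2 scale, and at 7 days all 6 rose with VIC-1911 (0.85 to 1.33) and with olaparib (0.42 to 1.00). With the combination 4 rose, and the 6 estimates ran from 0.09 to 0.59. Of all genes, 7.19% fell at 2 days, and 26.7%, 28.1% and 28.6% rose with VIC-1911, olaparib and the combination at 7 days. MCM2 had 54.4, 49.2 and 48.96 FPKM in the 2-day vehicle libraries and 40.5, 41.9 and 41.2 FPKM with VIC-1911. At 7 days MCM2 had 20.9, 18.6 and 20.1 FPKM with vehicle, 42.5, 42.3 and 42.6 with VIC-1911, 33.4, 36.8 and 32.9 with olaparib and 25.7, 27.1 and 25.9 with the combination. MCM2 separated every treated group from its vehicle without overlap, and the combination lay between vehicle and olaparib. The estimates were -0.27 ± 0.05 at 2 days, 1.05 ± 0.05 for VIC-1911, 0.78 ± 0.05 for olaparib and 0.40 ± 0.05 for the combination, with the largest adjusted p at 2 days (1.9e-04).

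MCM4 and MCM7 are subunits of the same ring. Values of MCM4 at 2 days were 34.5, 36.1 and 36.1 FPKM with vehicle and 31.3, 32.6 and 32.1 FPKM with VIC-1911. The 7-day MCM4 values were 11.97, 10.5 and 9.85 FPKM with vehicle, 28.1, 27.1 and 29.4 with VIC-1911, 21.5, 22.9 and 21.4 with olaparib and 16.6, 16.8 and 15.9 with the combination. All MCM4 libraries with VIC-1911 at 2 days were below vehicle by FPKM, but the fitted change was not called (-0.12 ± 0.05, adjusted p = 0.1). At 7 days MCM4 rose by 1.33 ± 0.06 with VIC-1911, 1.00 ± 0.06 with olaparib and 0.59 ± 0.06 with the combination, and the largest of the 3 adjusted p values was 4.7e-10. MCM7 had 64.4, 63.04 and 62.98 FPKM in the 2-day vehicle libraries and 50.8, 53.3 and 50.7 FPKM with VIC-1911. At 7 days MCM7 had 27.02, 23.2 and 25.8 FPKM with vehicle, 48.3, 48.7 and 50.6 with VIC-1911, 38.4, 41.5 and 36.8 with olaparib and 32.3, 31.4 and 28.98 with the combination. MCM7, the most highly expressed of the ring subunits by FPKM, had no overlap between vehicle and any treated group. Its changes were -0.28 ± 0.05 at 2 days, 0.92 ± 0.05 for VIC-1911, 0.61 ± 0.06 for olaparib and 0.29 ± 0.06 for the combination. MCM3 rose by 0.20 ± 0.05 with the combination (adjusted p = 0.002), while MCM5 and MCM6 had 0.09 ± 0.06 and 0.09 ± 0.07 (adjusted p = 0.24 and 0.3).

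MCM10 helps to start unwinding at fired origins, and MCM8 works in a separate helicase that takes part in recombination. MCM10 had 7.40, 8.87 and 8.95 FPKM in the 2-day vehicle libraries and 8.01, 6.45 and 7.18 FPKM with VIC-1911. At 7 days MCM10 had 1.99, 1.53 and 1.64 FPKM with vehicle, 5.96, 5.76 and 6.41 with VIC-1911, 4.16, 4.85 and 4.02 with olaparib and 2.58, 2.48 and 2.45 with the combination. MCM10 overlapped at 2 days, and at 7 days its 4 groups did not overlap one another. The estimate at 2 days was -0.22 ± 0.09 (adjusted p = 0.097). With VIC-1911 at 7 days it rose by 1.77 ± 0.10, a 3.40-fold increase, and with olaparib by 1.32 ± 0.10, a 2.50-fold increase, the largest of the 49 genes in both comparisons. The combination raised MCM10 by 0.54 ± 0.11 (adjusted p = 1.1e-04). Values of MCM8 at 2 days were 7.05, 6.68 and 7.999 FPKM with vehicle and 5.47, 5.81 and 5.97 FPKM with VIC-1911. The 7-day MCM8 values were 2.51, 2.30 and 2.26 FPKM with vehicle, 4.15, 4.38 and 4.48 with VIC-1911, 4.01, 3.93 and 3.74 with olaparib and 2.90, 3.02 and 2.92 with the combination. For MCM8 every treated group was clear of its vehicle. Its changes were -0.35 ± 0.10 at 2 days, 0.83 ± 0.09 for VIC-1911, 0.69 ± 0.09 for olaparib and 0.31 ± 0.09 for the combination, all called. MCM8 lost its 2-day call when vehicle replicate 3 or VIC-1911 replicate 1 was left out, with the adjusted p then as high as 0.16.

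CDC45 and the 4 GINS subunits complete the active helicase. At 2 days 3 of the 5 fell (7.19% of all genes). At 7 days all 5 rose with VIC-1911 and with olaparib (26.7% and 28.1% of all genes), and 4 rose with the combination (28.6%). GINS1 had 21.2, 19.6 and 19.1 FPKM in the 2-day vehicle libraries and 14.9, 15.96 and 15.2 FPKM with VIC-1911. At 7 days GINS1 had 5.68, 4.18 and 4.20 FPKM with vehicle, 11.8, 11.1 and 12.5 with VIC-1911, 11.7, 11.3 and 10.03 with olaparib and 8.07, 6.61 and 7.58 with the combination. GINS1 values with VIC-1911 and olaparib at 7 days overlapped each other, and both lay above the combination, which lay above vehicle. The estimates were -0.38 ± 0.07 at 2 days, 1.28 ± 0.09 for VIC-1911, 1.18 ± 0.10 for olaparib and 0.65 ± 0.10 for the combination, all called, with the largest adjusted p at 2 days (1.2e-04). Values of GINS4 at 2 days were 9.04, 9.37 and 8.47 FPKM with vehicle and 7.07, 6.93 and 7.74 FPKM with VIC-1911. The 7-day GINS4 values were 3.62, 2.99 and 3.92 FPKM with vehicle, 6.56, 6.92 and 7.16 with VIC-1911, 5.13, 6.30 and 5.89 with olaparib and 4.46, 4.77 and 4.25 with the combination. GINS4 likewise separated every treated group from its vehicle. Its changes were -0.28 ± 0.09 at 2 days, 0.96 ± 0.09 for VIC-1911, 0.77 ± 0.09 for olaparib and 0.38 ± 0.09 for the combination. GINS4 lost its 2-day call when vehicle replicate 1 or 2 or VIC-1911 replicate 1 or 2 was left out, with the adjusted p then as high as 0.13. CDC45 fell by 0.47 on the log2 scale at 2 days and rose by 1.05 ± 0.09 and 0.53 ± 0.09 with the single drugs at 7 days, but stood at -0.10 ± 0.09 with the combination (adjusted p = 0.38).

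CDC7 is the kinase that fires licensed origins and DBF4 its activating subunit. CDC7 had 7.85, 7.63 and 7.96 FPKM in the 2-day vehicle libraries and 6.98, 7.16 and 7.22 FPKM with VIC-1911. At 7 days CDC7 had 2.91, 2.86 and 2.79 FPKM with vehicle, 7.06, 5.49 and 6.70 with VIC-1911, 5.19, 5.45 and 5.29 with olaparib and 4.68, 4.53 and 4.05 with the combination. In CDC7 all libraries of each 7-day drug group were above vehicle, and the small 2-day difference was not called. The changes were -0.16 ± 0.10 at 2 days, 1.11 ± 0.10 for VIC-1911, 0.88 ± 0.10 for olaparib and 0.62 ± 0.10 for the combination, with adjusted p = 0.3 at 2 days and 3.7e-06 for the combination. Values of DBF4 at 2 days were 9.44, 11.4 and 9.93 FPKM with vehicle and 9.30, 9.85 and 9.90 FPKM with VIC-1911. The 7-day DBF4 values were 3.52, 2.96 and 2.90 FPKM with vehicle, 7.24, 6.20 and 7.78 with VIC-1911, 4.69, 5.10 and 4.51 with olaparib and 4.13, 4.21 and 4.77 with the combination. DBF4 overlapped at 2 days, and its olaparib and combination libraries overlapped at 7 days. It had -0.06 ± 0.09 at 2 days, 1.12 ± 0.10 for VIC-1911, 0.58 ± 0.10 for olaparib and 0.47 ± 0.10 for the combination, of which the 2-day value was not called (adjusted p = 0.73).

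POLA1, POLA2, PRIM1 and PRIM2 form the polymerase alpha and primase complex that lays down primers. At 2 days 2 of the 4 fell (7.19% of all genes). At 7 days all 4 rose with VIC-1911 (0.48 to 0.87) and olaparib (0.36 to 0.70), where 26.7% and 28.1% of all genes rose. With the combination 2 rose (28.6% of all genes). POLA2 had 6.69, 6.34 and 6.59 FPKM in the 2-day vehicle libraries and 6.09, 5.92 and 6.13 FPKM with VIC-1911. At 7 days POLA2 had 3.36, 3.01 and 2.92 FPKM with vehicle, 5.47, 5.45 and 5.91 with VIC-1911, 4.51, 5.04 and 4.60 with olaparib and 4.43, 3.65 and 3.62 with the combination. POLA2 with the combination lay above vehicle and below olaparib. The estimates were -0.13 ± 0.10 at 2 days, 0.80 ± 0.09 for VIC-1911, 0.59 ± 0.09 for olaparib and 0.33 ± 0.10 for the combination, of which the 2-day value was not called (adjusted p = 0.39). POLA2 lost its combination call when combination replicate 1 was left out, with the adjusted p then as high as 0.087. Values of PRIM1 at 2 days were 18.5, 21.6 and 21.7 FPKM with vehicle and 15.04, 14.9 and 14.5 FPKM with VIC-1911. The 7-day PRIM1 values were 6.33, 6.24 and 5.35 FPKM with vehicle, 11.4, 11.5 and 11.7 with VIC-1911, 9.71, 10.9 and 9.34 with olaparib and 7.48, 8.32 and 6.57 with the combination. PRIM1 was clear of vehicle in every treated group, below it at 2 days and above it at 7 days. Its changes were -0.44 ± 0.10 at 2 days, 0.87 ± 0.10 for VIC-1911, 0.70 ± 0.10 for olaparib and 0.28 ± 0.11 for the combination. PRIM1 lost its combination call when vehicle replicate 2 or 3 or combination replicate 1 or 2 was left out, with the adjusted p then as high as 0.12.

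Polymerase delta copies mainly the lagging strand and polymerase epsilon the leading strand. At 2 days 3 of their 5 subunits measured fell (7.19% of all genes). At 7 days 4 rose with VIC-1911 and 4 with olaparib (26.7% and 28.1% of all genes), and with the combination 1 rose and 1 fell. Of all genes, 28.6% rose and 28.0% fell with the combination, so the share of these 5 was not above the background in either direction. POLD1 had 19.1, 17.8 and 20.4 FPKM in the 2-day vehicle libraries and 14.3, 17.1 and 14.4 FPKM with VIC-1911. At 7 days POLD1 had 12.01, 10.6 and 10.1 FPKM with vehicle, 20.6, 21.5 and 22.03 with VIC-1911, 19.1, 20.7 and 18.7 with olaparib and 17.1, 15.5 and 16.1 with the combination. POLD1, the catalytic subunit of polymerase delta, overlapped between the single drugs, and the combination lay between them and vehicle. It had -0.28 ± 0.07 at 2 days, 0.91 ± 0.06 for VIC-1911, 0.81 ± 0.06 for olaparib and 0.56 ± 0.06 for the combination, all called. POLD1 lost its 2-day call when vehicle replicate 3 or VIC-1911 replicate 1 or 3 was left out, with the adjusted p then as high as 0.088. Values of POLD3 at 2 days were 5.43, 6.14 and 6.13 FPKM with vehicle and 4.33, 4.47 and 4.66 FPKM with VIC-1911. The 7-day POLD3 values were 2.94, 3.19 and 3.42 FPKM with vehicle, 3.80, 3.86 and 3.74 with VIC-1911, 3.10, 3.23 and 2.57 with olaparib and 2.14, 2.19 and 2.49 with the combination. POLD3, an accessory subunit of the same enzyme, was lowest in the combination libraries, which all lay under vehicle. It had -0.39 ± 0.11 at 2 days, 0.22 ± 0.10 for VIC-1911, -0.13 ± 0.10 for olaparib and -0.48 ± 0.10 for the combination. The VIC-1911 and olaparib values of 7 days were not called (adjusted p = 0.058 and 0.31), whereas POLD3 fell with the combination (adjusted p = 2.6e-04). POLD3 lost its 2-day call when vehicle replicate 3 was left out, with the adjusted p then as high as 0.069.

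POLE2 had 5.18, 6.89 and 6.27 FPKM in the 2-day vehicle libraries and 3.96, 4.30 and 4.01 FPKM with VIC-1911. At 7 days POLE2 had 1.85, 2.13 and 1.92 FPKM with vehicle, 3.21, 3.20 and 3.14 with VIC-1911, 2.90, 2.69 and 2.68 with olaparib and 2.07, 1.90 and 2.07 with the combination. POLE2, the second subunit of polymerase epsilon, fell furthest of the 49 genes at 2 days, and its combination libraries overlapped vehicle at 7 days. The estimates were -0.58 ± 0.15 at 2 days, 0.63 ± 0.14 for VIC-1911, 0.44 ± 0.14 for olaparib and 0.02 ± 0.15 for the combination, with adjusted p = 0.0057 at 2 days and 0.9 for the combination. By DESeq2 the 2-day change of POLE2 had an adjusted p of 0.062, which missed the threshold. POLE2 lost its olaparib call when vehicle replicate 1 was left out, with the adjusted p then as high as 0.062. The catalytic subunit POLE was among the steadiest, with -0.14 ± 0.07 at 2 days, 0.21 ± 0.06 for VIC-1911, 0.18 ± 0.06 for olaparib and -0.05 ± 0.06 for the combination, of which the middle 2 were called. POLE lost its olaparib call when vehicle replicate 1 or 3 or olaparib replicate 2 was left out, with the adjusted p then as high as 0.15. POLD2 had the highest FPKM of the 49 genes and estimates of -0.05 ± 0.05 at 2 days, 0.28 ± 0.04 for VIC-1911, 0.11 ± 0.04 for olaparib and -0.03 ± 0.04 for the combination. POLD2 lost its olaparib call when vehicle replicate 1, 2 or 3 or olaparib replicate 1 or 2 was left out, with the adjusted p then as high as 0.33.

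PCNA is the sliding clamp and RFC1 to RFC5 form its loader. In this group 3 of 6 fell at 2 days (7.19% of all genes). At 7 days 6 rose with VIC-1911 and 5 with olaparib (26.7% and 28.1% of all genes). With the combination 2 rose and 1 fell (28.6% and 28.0% of all genes). PCNA had 62.6, 71.7 and 65.9 FPKM in the 2-day vehicle libraries and 55.6, 58.5 and 56.4 FPKM with VIC-1911. At 7 days PCNA had 21.6, 17.5 and 17.7 FPKM with vehicle, 44.9, 41.3 and 45.8 with VIC-1911, 35.4, 42.7 and 38.6 with olaparib and 36.1, 30.8 and 31.4 with the combination. PCNA in the treated libraries of 7 days lay above all vehicle libraries, and olaparib overlapped both VIC-1911 and the combination. Its changes were -0.20 ± 0.06 at 2 days, 1.16 ± 0.08 for VIC-1911, 1.03 ± 0.08 for olaparib and 0.78 ± 0.08 for the combination, and 1.72-fold was the largest increase of the 49 genes with the combination (adjusted p = 8.1e-10). PCNA lost its 2-day call when vehicle replicate 2 or 3 or VIC-1911 replicate 1 was left out, with the adjusted p then as high as 0.14. Values of RFC2 at 2 days were 24.04, 27.8 and 27.9 FPKM with vehicle and 23.2, 28.2 and 25.2 FPKM with VIC-1911. The 7-day RFC2 values were 13.2, 13.4 and 13.3 FPKM with vehicle, 23.6, 22.8 and 24.3 with VIC-1911, 17.9, 18.1 and 17.7 with olaparib and 15.3, 15.6 and 15.1 with the combination. RFC2 overlapped at 2 days and gave 4 groups at 7 days that did not overlap. It had -0.05 ± 0.08 at 2 days, 0.78 ± 0.06 for VIC-1911, 0.41 ± 0.06 for olaparib and 0.20 ± 0.06 for the combination, with adjusted p = 0.72 at 2 days. RFC4 rose by 0.33 ± 0.07 with VIC-1911 and fell with the combination (-0.23 ± 0.08, adjusted p = 0.01). RFC4 lost its combination call when combination replicate 3 was left out, with the adjusted p then as high as 0.083.

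RPA1, RPA2 and RPA3 form replication protein A, which coats single-stranded DNA. Their changes were small, and 2 of 3 fell at 2 days (7.19% of all genes). At 7 days 3 rose with VIC-1911, by 0.26 to 0.45 (26.7% of all genes), 1 rose with olaparib and 1 with the combination. Since 28.1% and 28.6% of all genes rose in the last 2 comparisons, 1 of 3 is near the background there. RPA1 had 52.4, 46.2 and 53.02 FPKM in the 2-day vehicle libraries and 44.1, 43.8 and 45.6 FPKM with VIC-1911. At 7 days RPA1 had 35.9, 33.8 and 34.96 FPKM with vehicle, 42.9, 42.99 and 43.7 with VIC-1911, 35.1, 38.4 and 36.4 with olaparib and 34.1, 35.1 and 33.1 with the combination. RPA1 stood apart at 7 days in the VIC-1911 libraries, while the olaparib and combination libraries overlapped vehicle. It had -0.16 ± 0.05 at 2 days, 0.26 ± 0.04 for VIC-1911, 0.06 ± 0.04 for olaparib and -0.04 ± 0.04 for the combination. The olaparib and combination values of RPA1 were not called (adjusted p = 0.27 and 0.49). RPA1 lost its 2-day call when vehicle replicate 1 or 3 or VIC-1911 replicate 1, 2 or 3 was left out, with the adjusted p then as high as 0.17. Values of RPA2 at 2 days were 20.9, 18.7 and 22.4 FPKM with vehicle and 21.01, 22.3 and 20.8 FPKM with VIC-1911. The 7-day RPA2 values were 15.2, 13.01 and 14.2 FPKM with vehicle, 20.2, 18.9 and 20.7 with VIC-1911, 17.4, 18.2 and 18.9 with olaparib and 16.8, 17.3 and 16.9 with the combination. RPA2 overlapped at 2 days and was above vehicle in all 3 treated groups at 7 days. Its changes were 0.07 ± 0.08 at 2 days, 0.45 ± 0.07 for VIC-1911, 0.36 ± 0.07 for olaparib and 0.26 ± 0.07 for the combination, with adjusted p = 0.62 at 2 days. RPA3 rose by 0.27 ± 0.09 with VIC-1911 at 7 days. RPA3 lost its 7-day VIC-1911 call when vehicle replicate 2 or VIC-1911 replicate 3 was left out, with the adjusted p then as high as 0.16. It fell at 2 days by 0.34 on the log2 scale, a call lost without VIC-1911 replicate 1 (adjusted p = 0.098).

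FEN1 trims the flaps of Okazaki fragments and LIG1 seals the nicks between them. Both fell at 2 days by edgeR (7.19% of all genes) but not by DESeq2. Both rose with VIC-1911, olaparib and the combination at 7 days (26.7%, 28.1% and 28.6% of all genes). FEN1 had 37.2, 39.1 and 39.4 FPKM in the 2-day vehicle libraries and 32.7, 34.995 and 32.2 FPKM with VIC-1911. At 7 days FEN1 had 13.2, 11.3 and 11.5 FPKM with vehicle, 30.4, 29.5 and 32.1 with VIC-1911, 19.97, 25.2 and 21.9 with olaparib and 17.2, 17.1 and 15.6 with the combination. FEN1 gave 4 groups at 7 days without overlap, in the order vehicle, combination, olaparib, VIC-1911. The changes were -0.19 ± 0.06 at 2 days, 1.30 ± 0.07 for VIC-1911, 0.90 ± 0.07 for olaparib and 0.46 ± 0.07 for the combination, with adjusted p = 0.029 at 2 days. FEN1 lost its 2-day call when vehicle replicate 2 or 3 or VIC-1911 replicate 1 or 3 was left out, with the adjusted p then as high as 0.11. Values of LIG1 at 2 days were 6.16, 5.87 and 6.30 FPKM with vehicle and 4.49, 5.10 and 4.44 FPKM with VIC-1911. The 7-day LIG1 values were 3.25, 2.71 and 3.41 FPKM with vehicle, 6.67, 6.28 and 6.94 with VIC-1911, 6.26, 5.79 and 5.70 with olaparib and 4.45, 5.30 and 4.72 with the combination. LIG1, whose promoter is printed above, followed the same order without overlap. Its changes were -0.41 ± 0.10 at 2 days, 1.07 ± 0.09 for VIC-1911, 0.91 ± 0.09 for olaparib and 0.64 ± 0.09 for the combination, with the largest adjusted p at 2 days (0.0042).

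TIMELESS and TIPIN stabilize the fork and WDHD1 ties the helicase to polymerase alpha. TIMELESS had 24.2, 21.4 and 24.3 FPKM in the 2-day vehicle libraries and 18.1, 18.9 and 20.7 FPKM with VIC-1911. At 7 days TIMELESS had 10.03, 8.86 and 8.07 FPKM with vehicle, 18.6, 19.2 and 19.3 with VIC-1911, 14.6, 14.6 and 13.1 with olaparib and 10.97, 9.76 and 10.05 with the combination. TIMELESS with the combination overlapped vehicle, although the fitted difference was called. It had -0.27 ± 0.06 at 2 days, 1.02 ± 0.06 for VIC-1911, 0.61 ± 0.06 for olaparib and 0.18 ± 0.07 for the combination, with adjusted p = 0.0012 at 2 days and 0.023 for the combination. TIMELESS lost its combination call when vehicle replicate 2 or 3 or combination replicate 1 was left out, with the adjusted p then as high as 0.17. Values of WDHD1 at 2 days were 8.28, 7.79 and 7.69 FPKM with vehicle and 6.04, 6.38 and 5.77 FPKM with VIC-1911. The 7-day WDHD1 values were 2.81, 2.55 and 2.69 FPKM with vehicle, 4.91, 5.08 and 5.26 with VIC-1911, 4.23, 4.19 and 3.93 with olaparib and 2.77, 3.71 and 3.34 with the combination. WDHD1 likewise overlapped between the combination and vehicle. Its changes were -0.32 ± 0.08 at 2 days, 0.88 ± 0.09 for VIC-1911, 0.59 ± 0.09 for olaparib and 0.27 ± 0.09 for the combination. WDHD1 lost its combination call when vehicle replicate 2 or combination replicate 2 was left out, with the adjusted p then as high as 0.086. TIPIN had 0.06 ± 0.12 at 2 days (adjusted p = 0.79) and rose by 0.59 ± 0.10 with VIC-1911 at 7 days.

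CHAF1A and CHAF1B are subunits of chromatin assembly factor 1, which places histones behind the fork. CHAF1A had 22.4, 19.5 and 19.6 FPKM in the 2-day vehicle libraries and 17.8, 15.5 and 15.8 FPKM with VIC-1911. At 7 days CHAF1A had 10.8, 10.6 and 9.22 FPKM with vehicle, 17.1, 18.2 and 19.1 with VIC-1911, 14.2, 15.997 and 13.4 with olaparib and 13.05, 12.1 and 11.5 with the combination. CHAF1A was clear of vehicle in every treated group. It had -0.26 ± 0.07 at 2 days, 0.77 ± 0.07 for VIC-1911, 0.47 ± 0.07 for olaparib and 0.23 ± 0.07 for the combination, all called. CHAF1A lost its 2-day call when vehicle replicate 1 or VIC-1911 replicate 2 or 3 was left out, with the adjusted p then as high as 0.11. CHAF1A lost its combination call when combination replicate 1 was left out, with the adjusted p then as high as 0.06. Values of CHAF1B at 2 days were 12.3, 13.5 and 12.1 FPKM with vehicle and 9.19, 10.4 and 10.1 FPKM with VIC-1911. The 7-day CHAF1B values were 3.81, 4.33 and 4.23 FPKM with vehicle, 7.91, 8.71 and 8.70 with VIC-1911, 6.30, 7.63 and 6.14 with olaparib and 4.84, 4.73 and 4.21 with the combination. CHAF1B with the combination overlapped vehicle. The changes were -0.38 ± 0.10 at 2 days, 1.00 ± 0.10 for VIC-1911, 0.70 ± 0.10 for olaparib and 0.15 ± 0.11 for the combination, with adjusted p = 0.22 for the combination. CHAF1B lost its 2-day call when vehicle replicate 2 or VIC-1911 replicate 1 was left out, with the adjusted p then as high as 0.058.

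Most of these genes were lower with the combination than with VIC-1911 alone. In that comparison 45 of the 49 fell and 1 rose, where 22.2% of all genes fell and 20.7% rose, and the median log2 fold change was -0.59 against 0.01 for all genes. MCM10 fell furthest, by 1.23 on the log2 scale, and CDC45 by 1.15. ORC4 was the gene that rose (0.19 ± 0.07, adjusted p = 0.028). That call was lost without VIC-1911 replicate 2 or 3 or combination replicate 2 or 3 (adjusted p up to 0.084). All 3 combination values lay below all 3 VIC-1911 values for 47 genes (29.8% of all genes), with ORC3 and ORC4 the exceptions. Against olaparib alone, a comparison within 1 block of library numbers, 36 of the 49 fell and 0 rose, where 6.95% of all genes fell and 4.55% rose, and the median was -0.34. MCM10 again fell furthest, by 0.79 on the log2 scale, then ORC6 by 0.73 and CDC45 by 0.62. CDC7, DBF4 and the 3 RPA genes were among the 13 that were not called. Of the 36 calls, 13 were lost when some 1 library was left out, and the count then ran from 24 to 33.

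The 2 drugs did not add up on the log2 scale. The sum of the single-drug log2 fold changes had a median of 1.35 over the 49 genes and ran from 0.10 to 3.09, while the combination had a median of 0.20 and ran from -0.48 to 0.78, and it was below the sum for 48 of the 49 (all but ORC4). The interaction term, which tests the combination less olaparib less VIC-1911 plus vehicle and in which a constant difference between the blocks of library numbers cancels, was negative and called for 47 genes and positive and called for 0, where 22.9% and 21.0% of all genes were. Its median was -1.21 against 0.01 for all genes. MCM10 had -2.55 ± 0.14, MCM4 -1.74 ± 0.08 and MCM2 -1.43 ± 0.07, with adjusted p = 2.5e-15, 5.7e-17 and 7.4e-16. ORC3 and ORC4 were not called (-0.16 ± 0.22 and 0.02 ± 0.10, adjusted p = 0.59 and 0.9). Of the genes called, RPA3 lost its call without vehicle replicate 2 or VIC-1911 replicate 3 (adjusted p up to 0.074).

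**Figure D3:**
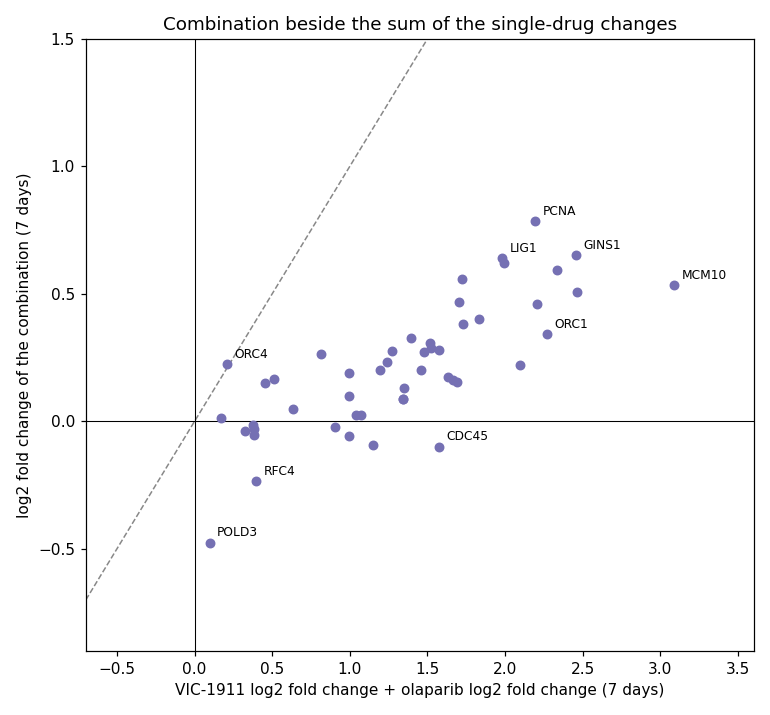
Log2 fold change of the combination against vehicle (vertical axis) beside the sum of the VIC-1911 and olaparib log2 fold changes at 7 days (horizontal axis), 1 point per gene for the 49 genes. The dashed line marks equality, all 3 comparisons share the 3 vehicle libraries, and 48 of the 49 points lie below the line.

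The VIC-1911 effect also differed between the time points. Fitted over both experiments with 13832 genes, the 7-day effect less the 2-day effect was positive and called for 45 of the 49 genes and negative and called for 0 (14.6% and 14.2% of all genes), with a median of 1.11 against -0.01 for all genes. The 3 with the smallest adjusted p were MCM4 (1.44 ± 0.08, adjusted p = 6.4e-20), MCM2 (1.31 ± 0.07, adjusted p = 1.2e-19) and MCM7 (1.19 ± 0.07, adjusted p = 1.5e-18). The 4 exceptions were ORC2, ORC3, ORC4 and ORC5, whose differences ran from -0.05 for ORC5 to 0.02 for ORC3 and ORC4. PRIM2, RPA2 and TIPIN lost their calls without vehicle replicate 2 (PRIM2) or vehicle replicate 3 (RPA2 and TIPIN) of 2 days, with adjusted p = 0.086, 0.064 and 0.053. The counts of 0 genes lower with either drug alone at 7 days and of 0 higher with the combination than with olaparib were checked further. So were those of 0 genes positive in the interaction and 0 negative between the time points. All of these stayed at 0 at an unadjusted p under 0.05 and by DESeq2 and limma. Each effect is against its own vehicle, and the vehicle levels of these genes differed between the experiments as given above.

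**Figure D4:**
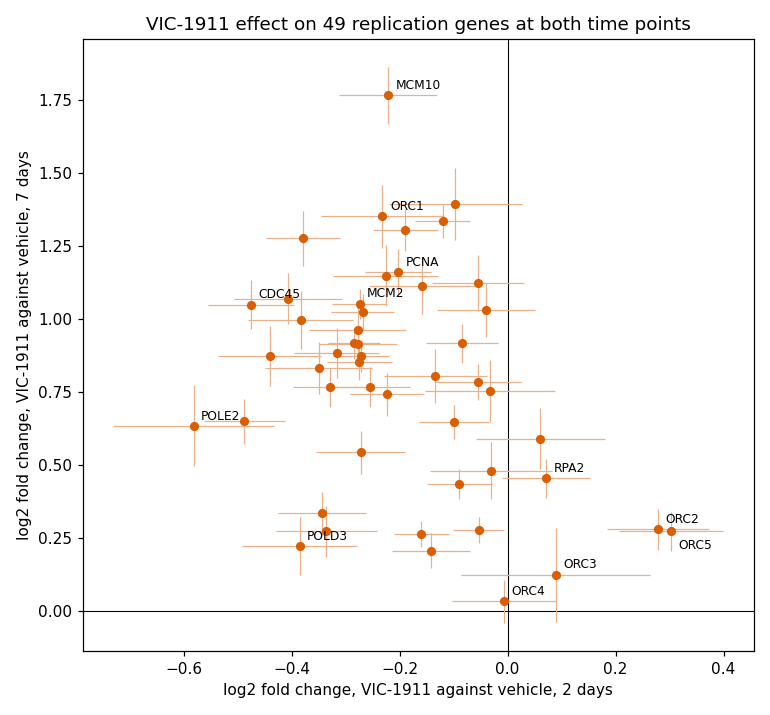
Log2 fold change with VIC-1911 at 2 days (horizontal axis) and at 7 days (vertical axis) for the 49 genes, with bars of ± 1 standard error. The points lie above 0 on the vertical axis and mostly left of 0 on the horizontal axis, and ORC2, ORC3, ORC4 and ORC5 lie near the lower right.

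Genes with and without an E2F-type promoter motif are set side by side here. At 7 days with VIC-1911 the 32 genes with a motif had a median log2 fold change of 0.82 (31 rose) and the 11 without had 0.91 (10 rose). With the combination the medians were 0.19 and 0.22. At 2 days the medians were -0.24 (19 of 32 fell) and -0.06 (3 of 11 fell), and both genes that rose, ORC2 and ORC5, were without a motif. The split was not tested.

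Of 34 other replication genes, which include checkpoint, topoisomerase and histone chaperone genes, 1 rose and 12 fell at 2 days (7.5% and 7.19% of all genes), 26 rose and 2 fell with VIC-1911 at 7 days (26.7% and 25.7%), 24 rose and 2 fell with olaparib (28.1% and 25.9%), and 16 rose and 1 fell with the combination (28.6% and 28.0%). The medians were -0.16, 0.59, 0.43 and 0.14. TOP1 had 27.8, 27.7 and 27.02 FPKM with vehicle at 7 days, 39.1, 36.9 and 41.03 with VIC-1911, 41.3, 37.4 and 38.3 with olaparib and 39.4, 39.3 and 40.7 with the combination. TOP1, a topoisomerase that relieves the twist ahead of the fork, overlapped among the 3 drug groups, and all their libraries were above vehicle. It rose by 0.53 ± 0.05 with the combination and also at 2 days by 0.19 ± 0.05 (adjusted p = 0.0097). TONSL had 6.06, 5.87 and 5.35 FPKM with vehicle at 7 days, 10.4, 10.1 and 11.4 with VIC-1911, 10.3, 10.6 and 10.2 with olaparib and 8.84, 8.61 and 8.22 with the combination. TONSL, which acts at damaged forks, rose by 0.55 ± 0.06 with the combination and 0.83 ± 0.06 with VIC-1911. NASP had 17.7, 17.05 and 16.2 FPKM with vehicle at 7 days, 28.99, 27.97 and 29.7 with VIC-1911, 26.5, 26.6 and 25.2 with olaparib and 21.4, 20.7 and 21.1 with the combination. NASP, a histone chaperone, rose by 0.30 ± 0.05 with the combination and 0.72 ± 0.05 with VIC-1911.

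Among 18 G1/S regulators, 2 rose and 8 fell at 2 days (7.5% and 7.19% of all genes). At 7 days 17 rose and 1 fell with each single drug (26.7% and 25.7% of all genes with VIC-1911, 28.1% and 25.9% with olaparib), and 8 rose and 1 fell with the combination (28.6% and 28.0%), with medians of -0.26, 0.72, 0.66 and 0.21. RBL2, a repressor of E2F targets, was the gene that fell at 7 days. RBL2 had 29.7, 29.6 and 30.2 FPKM with vehicle at 7 days, 20.8, 21.3 and 20.97 with VIC-1911, 22.1, 20.1 and 21.6 with olaparib and 18.8, 21.4 and 20.01 with the combination. All RBL2 libraries with a drug lay below all vehicle libraries, and the changes were -0.55 ± 0.05, -0.51 ± 0.05 and -0.58 ± 0.05 in that order. E2F3 had 6.87, 6.64 and 6.65 FPKM with vehicle at 7 days, 11.4, 10.5 and 11.3 with VIC-1911, 10.3, 10.4 and 10.8 with olaparib and 10.6, 9.87 and 10.3 with the combination. E2F3, an activating E2F factor, and CDK4, a G1 kinase, rose with the combination by 0.61 ± 0.06 and 0.57 ± 0.05. CDK4 had 43.5, 37.6 and 38.9 FPKM with vehicle at 7 days, 55.6, 55.2 and 57.3 with VIC-1911, 58.9, 62.6 and 56.4 with olaparib and 61.7, 56.9 and 60.005 with the combination. Both E2F3 and CDK4 were above all vehicle libraries in each drug group.

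Among 24 G2/M genes, 2 rose and 9 fell at 2 days (7.5% and 7.19% of all genes). All 24 rose with VIC-1911 at 7 days (26.7% of all genes), with a median of 1.45, and with olaparib 20 rose and 0 fell (28.1% and 25.9%), with a median of 0.46. With the combination 4 rose and 7 fell (28.6% and 28.0%), with a median of -0.09, and the share that fell was close to that of all genes. Against VIC-1911 alone all 24 fell with the combination (22.2% of all genes), with a median of -1.47, and the interaction was negative and called for all 24 (22.9%), with a median of -2.01. Their summed level was 173 to 251 FPKM in the 7-day vehicle libraries, 587 to 622 with VIC-1911, 286 to 339 with olaparib and 203 to 219 with the combination. CDK1 had 12.7, 9.20 and 11.4 FPKM with vehicle at 7 days, 38.9, 38.9 and 42.5 with VIC-1911, 38.8, 43.9 and 38.1 with olaparib and 25.8, 26.5 and 24.9 with the combination. CDK1, the mitotic kinase, lay above vehicle in all 3 drug groups and rose by 1.22 ± 0.08 with the combination. MKI67 had 6.43, 5.62 and 4.94 FPKM with vehicle at 7 days, 15.2, 14.7 and 13.1 with VIC-1911, 6.92, 6.78 and 6.48 with olaparib and 3.04, 4.42 and 3.89 with the combination. MKI67, the proliferation antigen, lay below vehicle only with the combination, where it fell (-0.62 ± 0.09). CENPF had 7.01, 5.20 and 5.05 FPKM with vehicle at 7 days, 11.999, 12.1 and 12.3 with VIC-1911, 6.45, 6.86 and 6.06 with olaparib and 3.37, 4.72 and 3.86 with the combination. CENPF, a kinetochore protein, likewise fell with the combination (-0.56 ± 0.09). How far the movement of the 49 genes follows the share of cycling cells in each culture was not tested.

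**Figure D5:**
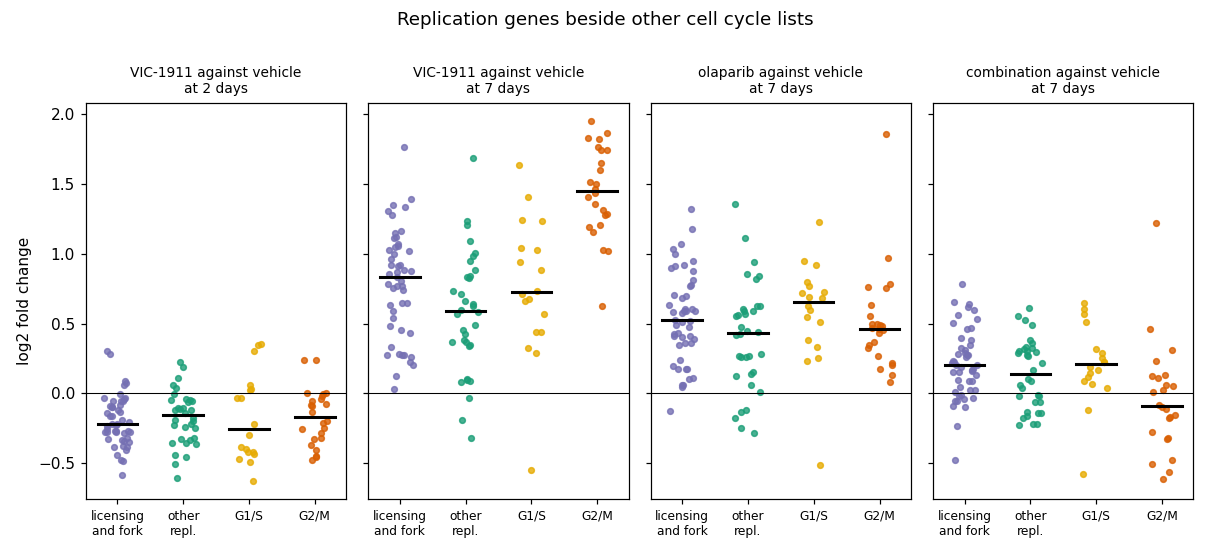
Log2 fold change of each gene in 4 lists (the 49 licensing and fork genes, 34 other replication genes, 18 G1/S regulators and 24 G2/M genes) against the vehicle of the same time point, 1 point per gene, with a black bar at the list's median. At 7 days with VIC-1911 the G2/M median is 1.45 and that of the 49 genes 0.83, and with the combination the medians are -0.09 and 0.20.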

How the data were processed

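RNA-seq of polyA RNA from 18 libraries was used. Per the labels and the study's methods, the authors trimmed reads with Trimmomatic, mapped them to GRCh38 with STAR (2.6.0 in the processing notes), deposited raw gene counts and computed FPKM values, which were deposited in tables for each time point. Counts were tested with edgeR 4.0.16 (quasi-likelihood test, TMM scaling, genes with at least 10 counts in 3 libraries, Benjamini-Hochberg adjustment over all genes), with 6 libraries at 2 days and 12 at 7 days in 1 fit each. FPKM was used for levels, their ratios and order, and the counts of libraries that do not overlap. Among the alternatives it was also used for a filter and for limma. The interaction and the difference between time points were tested as contrasts. The scripts were tested on simulated data.

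Depth was 3245273 to 19684208 counts per library. The biological coefficient of variation was 3.44% at 2 days and 4.43% at 7 days. Alternatives were other scalings and filters, DESeq2 1.42.0 (the tool the study names), limma 3.58.1 on log2(FPKM + 0.1) and log2(FPKM + 1), a replicate block, the compared groups alone and each library left out. The 49 genes and the other lists were chosen with earlier results of these data known. Genes with values for every library were, in each role, the 2 with the smallest adjusted p in the combination against vehicle, those with the largest changes against vehicle, and the 3 with the smallest adjusted p in the interaction and between time points. Of each other list the 3 with the smallest adjusted p in the combination were taken. Further genes named (ORC2, CDC45, RFC4 and others) were chosen after their values were seen. The settings of the authors' quantification were not given in the sources used here. A prostate luminal marker that was listed for the check of the cell line is not reported here.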

Additional observations from a re-analysis of the deposited data

Results flagged for a closer look

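The effect of VIC-1911 differed with and without olaparib at 7 days by the interaction term of the edgeR fit, which was called for 47 of the 49 genes (22.9% of all genes in the same direction). The log2 interaction was -1.43 for MCM2, -1.74 for MCM4 and -2.55 for MCM10.

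The effect of VIC-1911 also differed between 7 days and 2 days by a test of that difference, called for 45 of the 49 genes (14.6% of all genes in the same direction). The difference of log2 fold changes was 1.31 for MCM2, 1.44 for MCM4 and 1.19 for MCM7. With 3 libraries in each group, single outlying libraries were not tested for.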

How the results depend on the processing

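No change of a single gene that was called, in the main fit or under an alternative, had the opposite sign in the other. Changes of sign in genes called in neither were not counted. Of 6517 values of single genes under an alternative, 6213 stayed on their side of the threshold, 275 lost the call and 29 gained it. At 2 days the count of 2 higher genes was 1 with upper-quartile scaling, library size alone or either limma setting and 0 with DESeq2, and 0 to 2 with a library left out. The count of 26 lower genes was 12 with DESeq2 and 18 to 23 with a library left out. The count of 0 genes lower past 1.5-fold was 1 with upper-quartile scaling or library size alone (POLE2), and 0 to 1 with a library left out. By glmTreat, which tests for a change beyond 1.2-fold and was used without the 1.5-fold limit, 1 gene was lower (RFC5). At 7 days, genes higher past 2-fold were 15 for VIC-1911, 4 for olaparib and 0 for the combination, against 35, 22 and 5 with a limit of 1.5. By glmTreat against 1.2-fold, without the 2-fold limit, 39, 33 and 11 genes were higher. The olaparib count past 2-fold was also 2 with limma on log2(FPKM + 1) and 2 to 6 with a library left out. The combination had 2 lower genes, 1 to 3 with a library left out, and 0 lower past 2-fold. By glmTreat against 1.2-fold, 1 gene was lower with the combination. The 1 gene higher with the combination than with VIC-1911, ORC4, was 0 without a filter, with DESeq2 or with either limma setting, and 0 to 1 with a library left out. Leaving glmTreat aside, calls held under every alternative for 12 of 26 lower genes at 2 days and 45 of 46 higher with VIC-1911 at 7 days. The same held for 39 of 44 higher genes with olaparib and 18 of 26 with the combination. The 2-day libraries held 3245273 to 7184420 counts and the 7-day libraries 4967931 to 19684208, and the part of depth in the 2-day calls was not tested.

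With the replicate number as a block, the count of 2 higher genes at 2 days was 1, and no other count of members moved by over 1.5 times. Deviations of same-numbered libraries correlated by -0.036 to 0.11 (median 0.016), and those of other numbers by -0.083 to 0.098 (median -0.010). With 3 libraries in each group, these values cannot show whether the numbers pair the samples.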
